A study of Mus musculus with 4 samples.

Results

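The 10 genes Ctsa, Ctsb, Ctsc, Ctsd, Ctsh, Ctsk, Ctsl, Ctss, Ctsz and Lgmn, which encode cathepsins and legumain, were taken by their symbols from 16375 listed genes, and all 10 were listed. RNA was sequenced from bone marrow-derived macrophages (BMDMs), which are grown from bone marrow cells with the growth factor M-CSF, of WT mice and of LNCKO mice, in which CRISPR-Cas9 removed the long noncoding RNA lncLy6c. Each genotype was kept for 24 h either without butyrate (control) or with 500 µM of it, which gave 4 groups with 1 library each. Butyrate is a short-chain fatty acid made by gut bacteria. For the study as a whole the methods name C57BL/6 mice of either sex, 4 to 6 weeks old, and a C57BL/6J background for the knockout. The sex of the mice behind these libraries and any pooling of animals are not given in the sources used here. With 1 library per group no difference had a replicate check, and the intervals below cover counting error only.

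Cathepsins and legumain are proteases of endosomes and lysosomes, made as inactive precursors and activated by cleavage in the acidic compartment. In macrophages they degrade phagocytosed and endocytosed protein, process antigen and the invariant chain for MHC class II, and cleave endosomal Toll-like receptors, and several are also secreted and cut extracellular matrix. Most cathepsins here are cysteine proteases. Ctsd encodes an aspartic protease, Ctsa a serine carboxypeptidase and Lgmn a cysteine protease of a separate family that cuts after asparagine.

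Values are FPKM (fragments per kilobase of gene per 1000000 fragments), and the authors' length of a gene took in its introns, so it was the genomic span. The values gave back whole fragments for each of the 10 genes in every library. Library totals, meaning those behind the FPKM values, were 53363944 to 65521713 fragments. Fragments summed over the genes matched to the annotation came to slightly more in each library, so these totals were close to the fragments assigned to genes. Of each total the 10 genes held 1.95% (1.945 to 1.952) in LNCKO control, 2.02% (2.018 to 2.025) in WT control, 2.08% (2.073 to 2.080) in WT butyrate and 2.10% (2.100 to 2.107) in LNCKO butyrate. These are exact Clopper-Pearson 95% intervals. The share was thus higher with butyrate in both genotypes, with intervals that did not overlap between any 2 libraries. With each library rescaled to an FPKM sum of 1000000, the median log2 change over the 10 genes was 0.00611 in WT and 0.0715 in LNCKO. The size of the change in WT thus depended on the scale.

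The libraries differed in other ways that touch the comparisons. Y-linked Ddx3y had 65 and 49 fragments in the WT control and WT butyrate libraries against 6128 and 7764 in the LNCKO control and LNCKO butyrate libraries, so genotype cannot be told apart from the sex of the donors. The transcript lncLy6c was not analysed here, so the knockout itself was not checked. All 10 macrophage markers had an average FPKM of 1 or more (Csf1r 38.3 to 46.5 and Cd68 307 to 340 over the libraries). Their summed FPKM was lowest in LNCKO butyrate (1489) and highest in WT butyrate (3515), but most of it was Lyz2, at 870 and 2871 there. As log2 ratios of FPKM + 1 of LNCKO butyrate over WT butyrate, Lyz2 was at -1.72 and the median of the 10 markers at -0.16. Of the 10, 9 were below 0 and 1 above. The order of the sums thus rests largely on Lyz2. Markers of other marrow cells were present too. In WT without and with butyrate and then LNCKO without and with it, the summed FPKM was 2602, 3011, 2256 and 2172 for the 10 neutrophil precursor markers, and 209, 164, 213 and 216 for the 7 B cell markers. For the 8 stromal markers it was 10.1, 9.47, 2.84 and 5.65, for 7 mast cell and basophil markers 46.2, 34.8, 71.8 and 70.9, and for the 7 listed erythroid markers 6.29, 6.89, 23.0 and 64.9. Osteoclast markers summed to 23.0 to 30.6, dendritic cell markers to 15.6 to 18.3 and T and NK cell markers to 15.8 to 20.9. In bulk RNA, fewer cells of a type and less RNA per cell cannot be told apart.

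To compare levels between genes, fragments were divided by the length of the merged exons. Whether fragments in introns were counted is not given in the sources used here. If they were, this scale overstates genes with long introns. On this scale, in fragments per kilobase of exon per 1000000 fragments, Ctss was the most abundant (2595 to 2969 over the 4 libraries), followed by Ctsd (1234 to 1350), Ctsb (1090 to 1183) and Lgmn (694 to 775). Ctsz lay at 521 to 589 and Ctsc at 301 to 412. Ctsl (141 to 182), Ctsa (126 to 143) and Ctsh (122 to 133) followed. The ranges of Ctsl and Ctsa overlapped, as did those of Ctsa and Ctsh, while every other pair of neighbours in the order was separate. Ctsk stood far below the others at 6.92 to 14.4. The order of the 10 genes was the same in each library. The order depends in part on the length used, since with the longest transcript in place of the merged exons Ctsb (mean 1439) lay above Ctsd (1428), Ctsc (604) above Ctsz (567) and Ctsh (209.7) above Ctsa (171.8) and Ctsl (169.5).

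**Figure D1:**
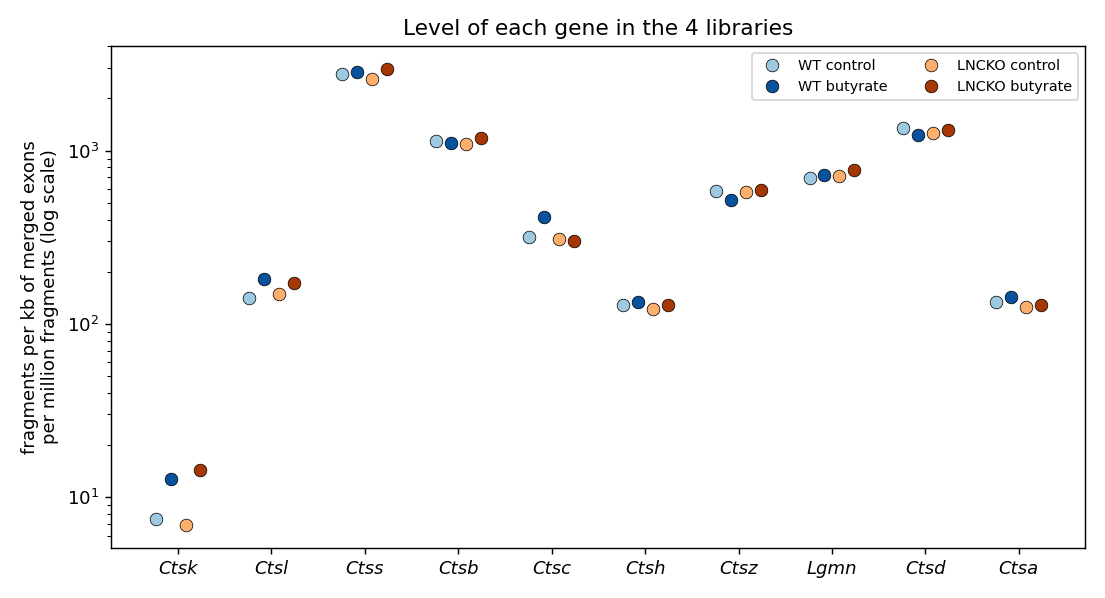
Level of each gene in each library, in fragments per kilobase of merged exons per 1000000 fragments on a log axis, with 1 point per library. Ctss lies highest at 2595 to 2969 and Ctsk lowest at 6.92 to 14.4, and the points of Ctsk and Ctsl are higher with butyrate in both genotypes.

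Sequence before the transcription start of 8 of the 10 genes was at hand in RefSeq (GRCm38.p6). Ctsb and Ctsh were not among them. The E-box CACGTG, the core of the element that TFEB and related factors bind at lysosomal genes, was searched on both strands in windows from 250 bases before to 50 after a start. It was found for 4 of the 8 genes (Ctsa, Ctsd, Ctsl and Lgmn), in 4 of their 10 windows, and in 7.15% of all 32851 windows. The longer TCACGTGA, which contains it, was found for Ctsa and Ctsd, in 2 of the 10 windows, and in 0.974% of all windows. Ctsa had the longer form on both sides of an alternative start, and Ctsd had it from 99 bases before its RefSeq start. Both of these starts, and both stretches, lie inside the genomic spans used here and so not upstream of the whole gene. These 30-base stretches are shown because both genes are lysosomal enzymes with the same motif and opposite signs of change with butyrate in WT, with the motif in capitals:
Ctsa, chr2:164833757-164833786, + strand: ctgTCACGTGAtgcagatgcTCACGTGAcc
Ctsd, chr7:142387908-142387937, - strand: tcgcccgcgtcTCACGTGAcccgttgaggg

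The purine-rich GAGGAAGT is of the kind that ETS factors such as PU.1 of myeloid cells bind. It was found for Ctsc and Ctss, in 2 of the 10 windows, and in 3.20% of all windows. Both matches lie on the opposite strand and so read ACTTCCTC:
Ctsc, chr7:88277923-88277952, + strand: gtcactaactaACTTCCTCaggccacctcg
Ctss, chr3:95526773-95526802, + strand: aatgaaagttcACTTCCTCattgtggatgc

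For Ctsk, the gene with the largest change, the 150 bases before its start are shown. They hold none of the motifs searched, which included the shorter ETS core GGAAGT and the TATA box TATAAA. Past the start, however, Ctsk has GGAAGT at bases 22 to 27. Over whole windows GGAAGT was found for 4 of the 8 genes (Ctsa, Ctsc, Ctsk and Ctss), in 4 of their 10 windows, and in 23.8% of all windows. TATAAA was found for 2 genes (Ctss and Lgmn), in 2 of the 10 windows, and in 13.6% of all windows:
Ctsk, chr3:95499060-95499209, + strand: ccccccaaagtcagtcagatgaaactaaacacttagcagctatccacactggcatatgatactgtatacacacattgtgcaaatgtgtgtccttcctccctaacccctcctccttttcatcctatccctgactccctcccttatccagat
A match in these windows is a description of letters and not a binding site.

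The comparison of butyrate with control asks what the fatty acid does to BMDMs of each genotype. Changes are the log2 ratio of FPKM + 1, and a change is called past the threshold where it is at least 0.32 in size, a ratio of 5 to 4. In WT, 3 of the 10 genes (Ctsk, Ctsc and Ctsl) were higher past the threshold with butyrate, against 2.95% of the 6809 genes with an average FPKM of 1 or more, and 0 were lower past the threshold, against 2.85%. In LNCKO 1 of 10, Ctsk, was higher past the threshold, against 1.01% of genes, and 0 were lower by as much, against 0.455%. The median change over the 10 genes was 0.06 in WT and 0.09 in LNCKO, and over all genes it was -0.04 and -0.01. Of the 10 genes, 7 had a value above 0 in WT and 9 in LNCKO. The interquartile range of all genes was -0.12 to 0.04 in WT and -0.06 to 0.04 in LNCKO. The share of all genes above 0 was not counted. After rescaling each library to an FPKM sum of 1000000, Ctsk stayed past the threshold in WT, while Ctsc at 0.316 and Ctsl at 0.314 lay just under it (0.322). On that scale 3.47% of the same 6809 genes were higher past the threshold and 9.97% lower. Without rescaling, 0 of 10 reached 2-fold in either direction in log2 FPKM + 1, against 0.338% of all genes in WT and 0.176% in LNCKO.

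**Figure D2:**
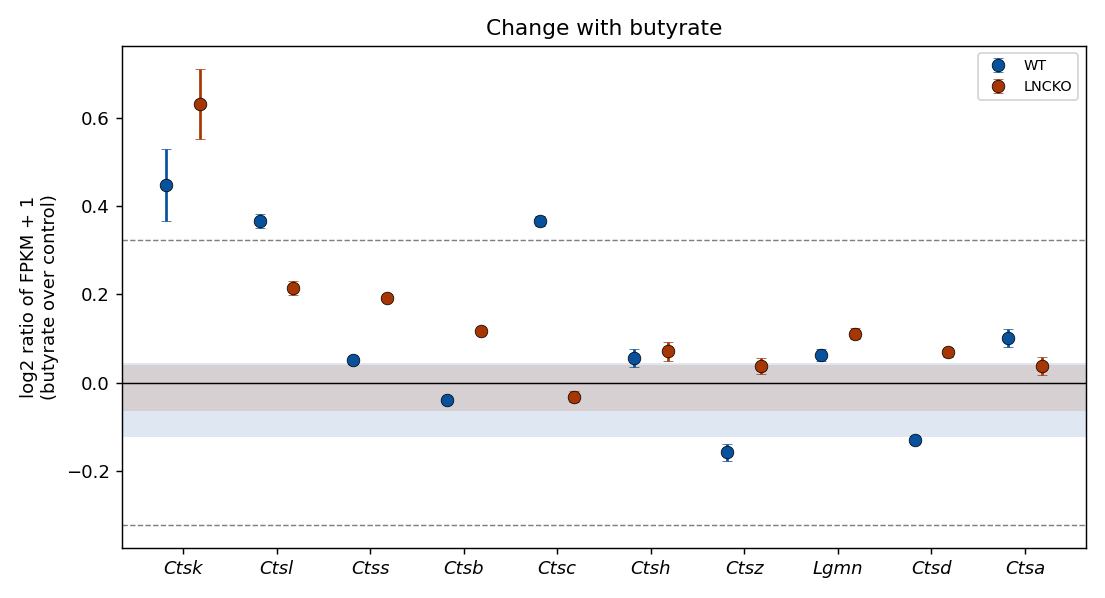
Log2 ratio of FPKM + 1 of butyrate over control for each gene, in WT and in LNCKO, with 95% counting intervals as bars, the interquartile range of all genes as shaded bands and the threshold of 0.32 as dashed lines. Ctsk lies above the threshold in both genotypes, Ctsl and Ctsc in WT.

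The cysteine endopeptidases Ctsk, Ctsl and Ctss had values above 0 in both genotypes, except that Ctss in WT was at -0.0035 after the rescaling. Values above 0 in both genotypes were not particular to them. Ctsa (0.10 in WT and 0.04 in LNCKO), Ctsh (0.06 and 0.07) and Lgmn (0.06 and 0.11) had them too. Ctsk (chr3:95499256-95509362 of GRCm38, + strand) encodes a strong collagenase best known from osteoclasts, the bone-resorbing relatives of macrophages. Its FPKM was 1.12 in WT control (638 fragments, 95% interval 1.03 to 1.21), 1.89 in WT butyrate (1132 fragments, 1.78 to 2.01), 1.03 in LNCKO control (558 fragments, 0.951 to 1.12) and 2.15 in LNCKO butyrate (1425 fragments, 2.04 to 2.27). Both butyrate libraries were above both control libraries, with no overlap of the intervals. The log2 change was 0.45 (0.37 to 0.53) in WT, rank 98 from the top of 6809 genes, and 0.63 (0.55 to 0.71) in LNCKO, rank 17. Since its FPKM is near 1, the pseudocount compresses these values. As plain ratios Ctsk was 1.69-fold (1.53 to 1.87) higher in WT and 2.08-fold (1.88 to 2.30) higher in LNCKO.

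Markers of other cells known for Ctsk were read beside it. Of the 8 osteoclast markers listed, 3 had an average FPKM of 1 or more. Of these 1, Mmp9, a secreted gelatinase that neutrophils also store, was higher past the threshold with butyrate in WT, against 2.95% of all genes. In LNCKO 0 were, against 1.01%. Acp5, the tartrate-resistant acid phosphatase, was at 7.77 FPKM without and 8.57 with butyrate in WT, and 7.73 without and 8.92 with it in LNCKO. Nfatc1, the remaining marker of the 3, went slightly the other way. It was at 1.14 FPKM without and 1.05 with butyrate in WT, and 1.12 without and 1.08 with it in LNCKO. The fusion genes Dcstamp and Ocstamp had 0 to 23 fragments in any library, and Calcr was not listed. Fibroblasts also express Ctsk. The stromal collagen gene Col1a1 was at 5.14 FPKM without and 4.04 with butyrate in WT, and 1.199 without and 2.31 with it in LNCKO. All 8 stromal markers were listed, and Col1a1 and Col1a2 were the 2 with an average FPKM of 1 or more. Their changes with butyrate were -0.28 and -0.26 in WT and 0.59 and 0.53 in LNCKO. The other 6 were at low levels, and Dcn, for example, had 939 and 1502 fragments in WT without and with butyrate and Cxcl12 had 766 and 1223. The median change over all 8 was 0.09 in WT and 0.27 in LNCKO. The part of other cells in the Ctsk values was not tested.

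Ctsl (chr13:64359337-64370890, - strand) encodes an endopeptidase of lysosomes that acts on the invariant chain and on other cathepsins. Its FPKM was 79.1 without and 102 with butyrate in WT, and 83.7 without and 97.2 with it in LNCKO, so both butyrate libraries again lay above both controls. The log2 change was 0.37 (0.35 to 0.38) in WT and 0.21 (0.20 to 0.23) in LNCKO, ranks 146 and 169 of 6809 from the top. An antisense gene, Gm47123, covers 26.8% of the merged exon bases of Ctsl and was not listed, and whether the counting used strand is not given in the sources used here. Of 8 placental cathepsins related to Ctsl (Cts3, Cts6, Cts7, Cts8, Ctsj, Ctsm, Ctsq and Ctsr), 0 were listed.

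Ctss (chr3:95526786-95556403, + strand) lies 17423 bases past the end of Ctsk. It encodes an endopeptidase active up to neutral pH that trims the invariant chain in antigen-presenting cells. Its FPKM was 127 without and 131 with butyrate in WT, and 119 without and 136 with it in LNCKO. The change with butyrate was 0.05 (0.04 to 0.06) in WT and 0.19 (0.18 to 0.20) in LNCKO. Among the 6809 genes Ctss ranked 1603 from the top in WT and 221 in LNCKO, where its neighbour Ctsk ranked 98 and 17.

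Ctsc (chr7:88278085-88310888, + strand) encodes cathepsin C, also called dipeptidyl peptidase I, which activates the serine proteases of neutrophil, mast cell and cytotoxic granules, such as neutrophil elastase and cathepsin G. Its FPKM was 56.4 without and 73.0 with butyrate in WT, and 54.6 without and 53.3 with it in LNCKO. The WT butyrate library stood apart and the other 3 lay within 53.3 to 56.4. The change with butyrate was 0.37 (0.35 to 0.38) in WT, rank 145 of 6809 from the top, and -0.03 (-0.04 to -0.02) in LNCKO. As a plain ratio Ctsc was 1.29-fold (1.28 to 1.30) higher with butyrate in WT.

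Granule genes that depend on cathepsin C, and markers of neutrophil precursors, were read beside it. Elane, which encodes neutrophil elastase, was at 174 FPKM without and 278 with butyrate in WT, and 190 without and 186 with it in LNCKO, and so had its highest value in the same library. Prtn3, for proteinase 3, was at 45.0, 50.7, 50.6 and 51.1 FPKM and Ctsg, for cathepsin G, at 72.5, 80.4, 78.8 and 75.1 in the same order. Of the 10 neutrophil precursor markers, 3 (Elane, Ly6g and S100a9) were higher past the threshold with butyrate in WT, against 2.95% of all genes. In the same comparison 3 (Camp, Ms4a3 and Ngp) were lower past the threshold, against 2.85%. In LNCKO 0 of 10 passed the threshold in either direction, against 1.01% of genes higher and 0.455% lower. Whether such cells carried the Ctsc value was not tested.

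The cysteine exopeptidases besides Ctsc had smaller values, none past the threshold in either genotype. Ctsb (chr14:63122462-63145923, + strand), a carboxydipeptidase that also acts as an endopeptidase, was at 292 FPKM without and 285 with butyrate in WT, and 281 without and 305 with it in LNCKO. The butyrate change was -0.04 in WT and 0.12 in LNCKO. Ctsh (chr9:90054152-90076089, + strand), an aminopeptidase, ranged from 24.96 in LNCKO control to 27.4 in WT butyrate, with changes of 0.06 and 0.07. Ctsz (chr2:174427493-174439039, - strand), a carboxypeptidase also called cathepsin X, was at 72.7 without and 65.0 with butyrate in WT, and 71.6 without and 73.5 with it in LNCKO. WT butyrate was the lowest library for Ctsz, with a change of -0.16 (-0.18 to -0.14) in WT against 0.04 (0.02 to 0.06) in LNCKO.

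Lgmn (chr12:102394084-102439813, - strand) encodes legumain, which converts several single-chain cathepsins to their 2-chain forms. Its FPKM was 35.2 without and 36.8 with butyrate in WT, and 36.4 without and 39.4 with it in LNCKO. The changes with butyrate were 0.06 (0.05 to 0.08) in WT and 0.11 (0.10 to 0.12) in LNCKO, both small beside those of Ctsk and Ctsl.

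The lysosomal enzymes outside the cysteine class differed from each other. Ctsd (chr7:142375911-142388038, - strand), the major aspartic protease of lysosomes, was at 262 FPKM without and 239 with butyrate in WT, and 244 without and 256 with it in LNCKO. It was lower with butyrate in WT, with a change of -0.13 (-0.14 to -0.12), and higher in LNCKO, with 0.07 (0.06 to 0.08). Another gene model on the same strand, Gm49369, covers 34.4% of its merged exon bases and had 0 to 2 fragments in any library. Ctsa (chr2:164832873-164841032, + strand), which also shields neuraminidase and beta-galactosidase in a complex, was at 77.1, 82.8, 72.6 and 74.5 FPKM in WT without and with butyrate and then LNCKO without and with it. Its changes were 0.10 in WT and 0.04 in LNCKO. Ctsa and Ctsd share the E-box shown above. Their signs were opposite in WT and both above 0 in LNCKO, and the part of the motif in these changes was not tested. Pltp, on the other strand, shares 10.5% of the merged exon bases of Ctsa, and Fdft1 shares 12.8% of those of Ctsb.

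**Figure D3:**
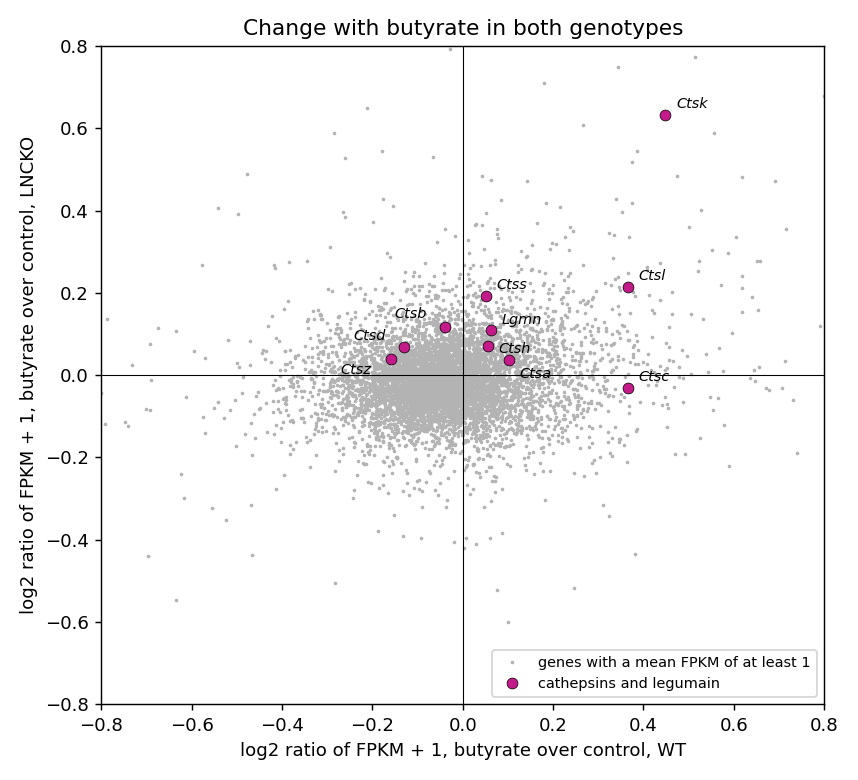
Each gene's log2 ratio of FPKM + 1 of butyrate over control in WT (x axis) and in LNCKO (y axis), for genes with an average FPKM of 1 or more (grey) and the 10 genes (coloured), with 52 genes beyond the axes. Ctsk lies high on both axes (0.45 and 0.63), Ctsc is high in WT alone (0.37 against -0.03), and Ctsb, Ctsd and Ctsz lie left of 0 on the x axis.

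The comparison of LNCKO with WT asks what the loss of lncLy6c does, and these values are subject to the Y-linked difference given above. Without butyrate, the 10 genes lay within -0.10 (Ctsd) and 0.08 (Ctsl), with a median of -0.06 where all genes had 0.01. Of the 10 genes, 8 were below 0 and 2, Ctsl and Lgmn, above it. All genes had an interquartile range of -0.04 to 0.07, and their share below 0 was not counted. In this comparison 0 of 10 were higher past the threshold, against 1.23% of all genes, and 0 lower past the threshold, against 0.984%. None was past 2-fold, against 0.279% of genes. For Ctsk the interval of the difference, -0.14 to 0.03, included 0.

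Under butyrate, Ctsc was the 1 gene of the 10 that passed the threshold. It was lower in LNCKO, with a difference of -0.44 (-0.46 to -0.43), rank 93 from the lowest of 6809, against 2.48% of genes lower past the threshold. In the other direction 0 of 10 passed, against 3.82% of genes, and 0 passed 2-fold, against 0.470%. Ctsz was higher in LNCKO by 0.17 (0.16 to 0.19), Ctsk by 0.12 (0.05 to 0.20), Ctsb and Ctsd each by 0.10, and Ctsa was lower, at -0.15 (-0.17 to -0.13). Beside Ctsc, 6 of the 10 neutrophil precursor markers were lower in LNCKO past the threshold under butyrate (Elane -0.58) and 1, Ms4a3, was higher (0.35), and their part in the Ctsc difference was not tested. The median over the 10 genes was 0.07, and over all genes 0.04. This comparison shares the WT butyrate library with the change in WT and the LNCKO butyrate library with the change in LNCKO.

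**Figure D4:**
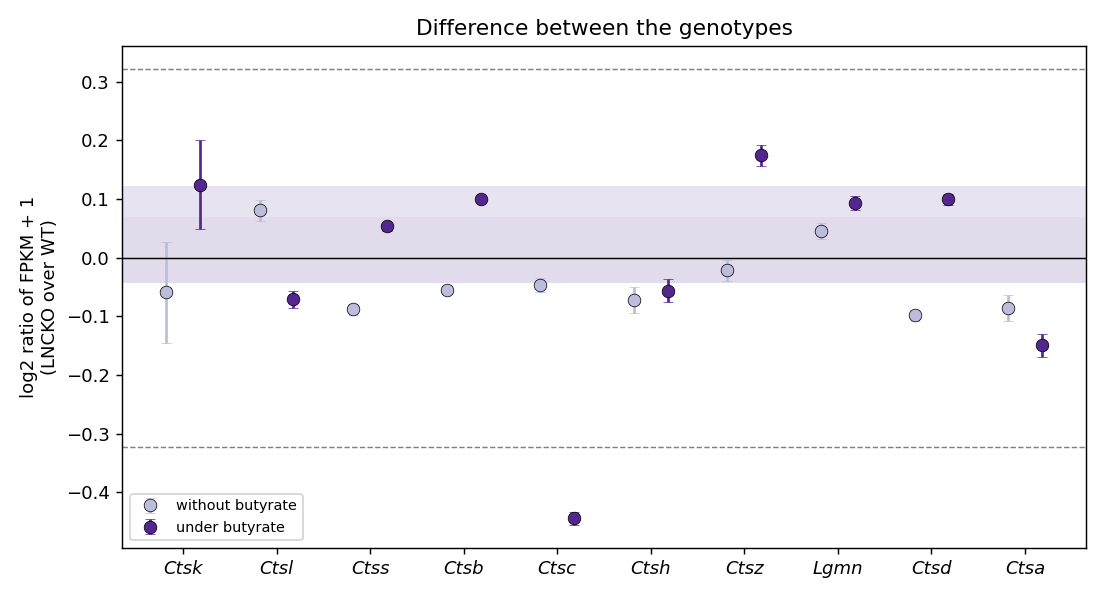
Log2 ratio of FPKM + 1 of LNCKO over WT for each gene, without and under butyrate, with 95% counting intervals as bars, the interquartile range of all genes as shaded bands and the threshold of 0.32 as dashed lines. The values without butyrate stay within -0.10 and 0.08, and Ctsc under butyrate lies at -0.44.

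The change in WT minus that in LNCKO describes how far the response differed between the genotypes. It was 0.40 for Ctsc, rank 132 from the highest of 6809, and this was the 1 value of the 10 past the threshold in favour of WT, against 3.50% of all genes. In favour of LNCKO 0 of 10 passed the threshold, against 4.10% of genes, and 0 passed 2-fold, against 0.338%. Ctsl (0.15) and Ctsa (0.06) also had higher changes in WT. The other 7 genes had higher changes in LNCKO, from -0.20 for Ctsd and Ctsz to -0.02 for Ctsh, with -0.18 for Ctsk. The median over the 10 genes was -0.09, against -0.03 over all genes. All genes had an interquartile range of -0.12 to 0.07, and their share below 0 was not counted. No test of the difference was possible with 1 library per group.

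Genes that act with the cathepsins were read as lists. For comparison, with butyrate 2.95% of all 6809 genes were higher and 2.85% lower past the threshold in WT. In LNCKO these shares were 1.01% and 0.455%. Of the cathepsin inhibitors, 12 of 13 symbols were listed and 8 had an average FPKM of 1 or more. With butyrate in WT 0 of 8 were higher past the threshold and 1, Cst7 (cystatin F, which restrains cathepsin C), was lower, at -0.40 on the log2 scale. In LNCKO 1 of 8, Cstdc4, was higher, at 0.41, and 0 were lower. The stefin Cstb was at 99.6 FPKM without and 84.2 with butyrate in WT, and 95.8 without and 101 with it in LNCKO, and the secreted cystatin Cst3 at 150, 142, 131 and 140. Both thus had values below 0 with butyrate in WT (-0.24 and -0.08) and above 0 in LNCKO (0.08 and 0.10). The median of the 8 inhibitors was -0.07 in WT and 0.09 in LNCKO. Under butyrate 2 of 8, Cst7 (0.43) and Cstdc4 (0.67), were higher in LNCKO than in WT past the threshold, against 3.82% of all genes.

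Of 15 genes for sorting receptors, the mannose 6-phosphate tag and partners of lysosomal enzymes, 14 had an average FPKM of 1 or more, and 0 passed the threshold with butyrate in either genotype. Their median was -0.06 in WT and -0.03 in LNCKO. The cation-dependent mannose 6-phosphate receptor M6pr was at 46.7, 41.9, 48.3 and 47.4 FPKM in WT without and with butyrate and then LNCKO without and with it. Neu1 and Glb1, whose products are partners of cathepsin A, had changes of -0.05 and -0.16 in WT. Among 10 regulators of lysosomal genes, 6 had an average FPKM of 1 or more and 0 passed the threshold with butyrate. Tfe3, a factor that binds the E-box, had changes of -0.13 in WT and -0.15 in LNCKO, and Tfeb, at 0.604 to 0.6996 FPKM, had 0.02 and 0.05.

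Among 10 genes whose products meet cathepsins in the endosome, 0 passed the threshold with butyrate in either genotype, and the median was 0.06 in WT and 0.03 in LNCKO. Cd74, the invariant chain, was at 93.5 FPKM without and 109 with butyrate in WT, and 94.4 without and 94.3 with it in LNCKO. H2-Aa, an MHC class II chain, was at 51.9, 62.9, 49.7 and 48.7 FPKM in the same order. It was the 1 gene of these 10 that was lower in LNCKO past the threshold under butyrate (-0.36), against 2.48% of all genes. Cd74 and H2-Aa both had their highest value in WT butyrate, as Ctsc did, whereas Ctsl, which can cleave the invariant chain, was higher with butyrate in both genotypes.

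For Ctsk and Ctsc, the 2 genes whose log2 values ranged most over the 4 libraries (by 0.63 and 0.44), the nearest patterns were sought among 2533 genes with an average FPKM of 5 or more and a symbol. Likeness was the Euclidean distance between the 4 centred log2 values, over 4 libraries. Nearest to Ctsk were Fabp4 (distance 0.10), Fabp5 (0.17) and Spp1 (0.27). Fabp4 and Fabp5 encode fatty acid binding proteins and Spp1 encodes osteopontin. Fabp4 was at 4.42, 6.08, 4.50 and 7.02 FPKM in WT without and with butyrate and then LNCKO without and with it, Fabp5 at 88.6, 112, 89.9 and 121, and Spp1 at 146, 255, 146 and 234. Each of the 3 was higher with butyrate in both genotypes and nearly level between the controls.

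Nearest to Ctsc were C1qb (distance 0.04), Selenon (0.04) and Ptms (0.06). C1qb, a chain of complement C1q, was at 119 FPKM without and 149 with butyrate in WT, and 115 without and 114 with it in LNCKO. Selenon was at 4.74, 6.63, 4.53 and 4.44 FPKM in the same order, and Ptms at 24.0, 30.1, 21.9 and 21.8. All 3 were highest in the WT butyrate library, as Ctsc was. These 6 genes were picked for their likeness, and their values are a description.

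**Figure D5:**
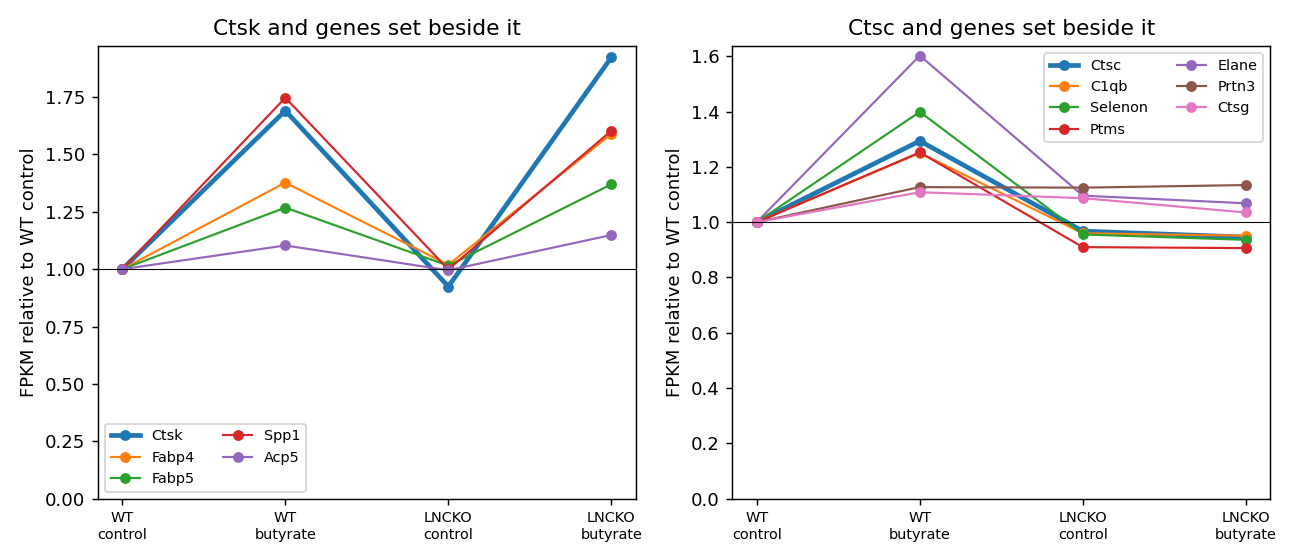
FPKM relative to WT control in the 4 libraries for Ctsk with its 3 nearest patterns and Acp5 (left), and for Ctsc with its 3 nearest patterns and the granule genes Elane, Prtn3 and Ctsg (right), with 1 point per library. The Ctsk group is higher in both butyrate libraries, and Ctsc, C1qb, Selenon and Elane peak in WT butyrate.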

How the data were processed

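The authors deposited FPKM values for 16375 genes in 4 libraries of BMDMs, with 1 column per library and no counts. The submitters' processing notes name STAR 2.5.0c, Picard 1.126, bedtools 2.17.0, HTSeq 0.6.0 and DESeq2 3.0 with GRCm38 and mm10, without their roles, and the methods name paired-end reads and the provider's web platform. Columns were matched to samples by the library names in the labels, and those of the LNCKO libraries (NC and R3) do not spell out genotype or treatment. The labels name Illumina library protocols, whereas the methods name an MGISEQ sequencer, and whether counting used strand is not given in the sources used here.

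The total of each library was the number that turned most FPKM values, multiplied by the gene span of GENCODE M21 (GRCm38), into whole fragments. Of 16342 matched genes, 98.5% were whole within 0.02 in all 4 libraries on the span, and 6.99% on the merged exons. These fragments gave the exact Clopper-Pearson 95% intervals. For a change, the exact interval of one library's share of the pair's fragments was carried to the log2 ratio of FPKM + 1. Without molecular identifiers, fragments are not independent molecules, so all intervals cover counting error only. If only fragments in exons were counted, an FPKM on the span understates genes with long introns, so genes were compared in level per merged exon.

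Changes were read over the 6809 genes with an average FPKM of 1 or more, past a log2 ratio of 0.32 (5 to 4) or past 2-fold. With 1 library per group no test was run, and genes were not used as replicates. The members, gene lists, motifs and thresholds were chosen with earlier results of these data known. Named genes are the members, the listed genes, overlapping genes and, for the 2 members with the widest range, the 3 nearest patterns. The cell type lists were macrophage, stromal, osteoclast, neutrophil precursor, B, dendritic, mast cell and basophil, T and NK and erythroid markers, and Y-linked genes. Alternatives were other pseudocounts (0.1 or none), median-ratio scaling, rescaling to 1000000 per library, merged exon length, other filters (a mean of 5 or none) and, for levels, the longest transcript or, chosen after seeing the data, the principal transcripts. The recovery of library totals and the log2 ratio of FPKM + 1 were tested on simulated data, and the other steps were not. The software was scipy 1.17.1 with numpy 2.4.6 under Python 3.11.15, pandas 2.3.3 for tables and matplotlib 3.10.9 for plots.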

Additional observations from a re-analysis of the deposited data

Results flagged for a closer look

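For 4 of the 10 genes the butyrate change had opposite signs in the genotypes, with both counting intervals clear of 0. The share of all genes with opposite signs was not counted. Their median changes, -0.04 in WT and -0.01 in LNCKO, lay close to 0, so the 4 genes are not set apart from genes at large. The change in WT minus that in LNCKO was 0.40 for Ctsc, which was higher in WT, and -0.16 for Ctsb, -0.20 for Ctsd and -0.20 for Ctsz, which were lower in WT and higher in LNCKO. With median-ratio scaling Ctsb was at 0.01 in WT, so that its signs were then no longer opposite. These differences were not tested, since each rests on 1 library per group, and in every one of the 8 changes except that of Ctsc in WT the value was under the threshold of 0.32.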

How the results depend on the processing

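No paired analysis was possible because the groups share fewer than 2 replicate numbers. A fit of genotype plus butyrate over the 4 libraries, which leaves 1 residual degree of freedom and counts any difference between the genotypes' changes as error, was not run. No library could be left out, since that would empty its group. Values are given for butyrate in WT, butyrate in LNCKO, LNCKO against WT without and under butyrate, and the change in WT minus that in LNCKO. Genes past the threshold of 0.32 in either direction numbered 395, 100, 151, 429 and 517. They were 760, 211, 304, 782 and 924 with a pseudocount of 0.1, and 835, 238, 327, 844 and 1010 with no pseudocount. After rescaling to 1000000 per library they were 1997, 733, 939, 1885 and 2244 (11021 genes passed the filter in place of 6809). With merged exon lengths they were 1180, 319, 451, 1146 and 1474 (10263 genes). With an average FPKM of 5 or more they were 185, 40, 58, 192 and 228, out of only 2544 genes. Over the original genes alone, an alternative chosen after seeing the data, they were 915, 218, 308, 880 and 1019 after rescaling and 630, 151, 231, 654 and 786 with merged exon lengths (6717 of these genes). Both settings raise the values while the pseudocount stays at 1, so it compresses the changes less. The change of Ctsk in WT, for example, went from 0.45 to 0.66 with rescaling and to 0.69 with merged exons. How far this accounts for the higher counts was not tested. With no filter, and so out of 16375 genes, the counts were 153 for butyrate in LNCKO and 234 for LNCKO against WT without butyrate. The median over the 10 genes with median-ratio scaling was 0.11 in WT, 0.11 in LNCKO and 0.0280 between genotypes under butyrate. After rescaling it was 0.00611, 0.0715 and 0.12, and -0.13 for WT minus LNCKO. Over the same 6809 genes, 50.9% of calls in WT were higher ones without rescaling, 25.8% with it and 64.7% with median-ratio scaling. In the same order the shares were 69%, 50% and 71.2% for butyrate in LNCKO, 60.6%, 72.8% and 47.3% between genotypes under butyrate, and 46.0%, 34.0% and 55.7% for WT minus LNCKO. Rescaling moved the median of the same 6809 genes in WT from -0.04 to -0.11, and there 1 of 10 genes, Ctsk, was higher past the threshold in place of 3. With the longest transcript, mean levels were 172 for Ctsa, 1439 for Ctsb, 604 for Ctsc, 1428 for Ctsd, 210 for Ctsh (209.7) and 849 for Lgmn. With the principal transcripts they were 172 for Ctsa, 1439 for Ctsb, 781 for Ctsc (780.5), 1428 for Ctsd, 356 for Ctsh, 257 for Ctsl and 884 for Lgmn. With no pseudocount the change of Ctsk was 0.76 in WT and 1.06 in LNCKO, past 2-fold in LNCKO. Of 250 alternative values for single genes, 163 stayed within the counting interval, 87 moved beyond it and 3 took the other sign, where for WT minus LNCKO the interval joined the half-widths of both changes. These 3 were uncalled: Ctsb in WT (-0.04, and 0.01 with median-ratio scaling), Ctss in WT (0.05, and -0.0035 after rescaling) and Ctsh for WT minus LNCKO (-0.02, and 0.01 with median-ratio scaling). With 1 library per group, spread between replicates is not known.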

Other observations

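Other cathepsin genes are typical of cells besides macrophages, and 5 of 13 such symbols were listed. Ctsg, the granule protease of neutrophil precursors, was the most abundant of them, with 11018 fragments without and 12818 with butyrate in WT, and 11331 without and 13249 with it in LNCKO, and its butyrate changes were 0.15 in WT and -0.07 in LNCKO. Ctso, a widely expressed cysteine cathepsin, was at 2.49, 2.58, 2.47 and 2.66 FPKM in the same order. Ctse, an aspartic protease, had a mean FPKM of 0.626, with 1500, 1033, 1361 and 1542 fragments. Ctsw, which cytotoxic lymphocytes express, had 52 and 39 fragments in the WT libraries and 125 and 90 in the LNCKO libraries, and of 12 T and NK cell markers 4 had an average FPKM of 1 or more. Ctsf had 35 to 77 fragments. Pltp, which overlaps Ctsa on the other strand and encodes the phospholipid transfer protein, was at 13.5, 15.9, 9.13 and 10.2 FPKM, so it was lower in LNCKO with a difference of -0.51 without butyrate and -0.59 under it.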
